A study of Mus musculus with 8 samples.

Results

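The antioxidant and redox defence genes are 35 of the 22911 genes that could be named on the array. They were chosen by function, as superoxide dismutases, catalase, peroxiredoxins, thioredoxins, glutaredoxins, genes of glutathione synthesis and use, NRF2 and its targets, and metallothioneins. Every probe whose accession is a mouse RefSeq transcript of these genes was taken, which gave 50 probes. Of the 35 genes, 21 had 1 probe, 13 had 2 and 1 had 3.

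RNA came from muscle of male mice aged 17 months, 3 Grsf1cKO and 3 WT, and was hybridized to Agilent 1-color arrays, 8 in all because Grsf1cKO 1 and WT 1 each had a repeat array. The Grsf1cKO mice descended from the Grsf1tm1a allele of the European Mouse Mutant Archive (strain C57BL/6N-Atm1Brd Grsf1tm1a(EUCOMM)Wtsi/WtsiIeg), freed of its reporter and selection cassettes by FLPo, so that Cre can delete exons IV and V. Cre came from Myf5Cre mice and acts in the embryonic muscle lineage, so that immune, vascular and nerve cells of the muscle should keep the gene. The controls are called wildtype, and the sources used here do not say whether they carried Cre or floxed alleles. The labels name the muscle as vastus intermedius and the paper names rectus femoris, both parts of the quadriceps.

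Muscle fibers make superoxide at the respiratory chain and at membrane oxidases. Superoxide dismutases turn it into hydrogen peroxide, which catalase, peroxiredoxins and glutathione peroxidases remove with reducing power passed from NADPH through thioredoxin and glutathione. The transcription factor NRF2, held in check by KEAP1, raises many of these genes under oxidative or electrophilic stress, while metallothioneins respond to metals, glucocorticoids and inflammation. GRSF1 is an RNA-binding protein of mitochondrial RNA granules, and the comparison asks whether muscle without it carried a different set of mRNAs for this defence.

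The labels held in every mouse. The log2 signal of Grsf1 was 12.15, 12.02 and 12.08 in Grsf1cKO mice 1, 2 and 3, against 14.30, 14.25 and 14.27 in WT mice 1, 2 and 3. The genotypes did not overlap, and Grsf1 fell by 2.19 on the log2 scale (SE 0.081, limma adjusted p = 0.00328). Of 10 skeletal muscle fiber markers, all 10 were well above background, with Acta1 between 18.69 and 18.75 in the 6 mice, near the top of the signal range. The genotypes did not overlap in 2 of the 10 by their brightest probes (20%, where 9.35% of all probes did not). These were Myh2, higher in Grsf1cKO (0.19), and Myh4, lower (-0.055), and a dimmer probe of each overlapped. Slow-fiber genes varied among mice of either genotype, with Myh7 between 9.27 and 11.38 and Tnnt1 between 11.98 and 14.38, the latter in Grsf1cKO 3. Myf5, the gene whose promoter drives Cre, was not well above background. Fewer cells of a type and less RNA per cell cannot be told apart in whole muscle, for any gene described here.

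All 35 genes were measured well above background in all 6 mice, and their brightest probes were among the stronger signals, with a median at percentile 93.5 of all probes. None of the 35 passed the study's criteria (fold change over 1.5, unadjusted p under 0.01 and false discovery rate under 0.2) in limma, against 0.00771% of 38888 probes tested. None had an unadjusted p under 0.05 in limma either, where 4.25% of all probes did, and the lowest was 0.0897, for Mt2. The z-test named in the methods also put 0 past the criteria, with 0.975% of probes there, and gave 3 genes an unadjusted p under 0.05 (Prdx2, Glrx3 and Gsta4), with 10.8% of probes there. The methods also name an ANOVA filter, a z-ratio cutoff and a bound on average z-score, which these criteria do not include. The 3 Grsf1cKO mice lay wholly above or below the 3 WT mice in 3 of the 35 genes (8.57%), near the 9.35% of all probes with a value in every mouse. Those genes were Sod2, lower in Grsf1cKO, and Prdx2 and Gsta4, higher, though Prdx2 overlapped with 75th percentile scaling, Sod2 with the deposited z-scores, within slide 2 and with repeat arrays substituted, and Gsta4 with the deposited z-scores and with the first arrays alone. Mt2 overlapped as reported but not within slide 2 or with the deposited z-scores. Log2 fold changes were above 0 in 17 genes and below 0 in 18, with a median of -0.002 beside -0.026 over all probes.

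The measurements were tight enough to bound most differences. For 33 of the 35 genes the 95% interval of the difference lay within 1.5-fold either way, which held for 62.9% of all probes, and the exceptions were Mt2 and Glrx. The intervals are for single genes and are not adjusted for their number. The median SD among mice of a genotype was 0.12 on the log2 scale for these genes and 0.18 for all probes. Repeat and first arrays of the same mouse differed with an SD of 0.055 over the 35 genes in Grsf1cKO 1 and 0.059 in WT 1, and of 0.73 and 0.28 over all probes tested. Averaged over the 35 genes, the mice lay between -0.031 (WT 3) and 0.037 (Grsf1cKO 1) relative to the WT mean.

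**Figure D1:**
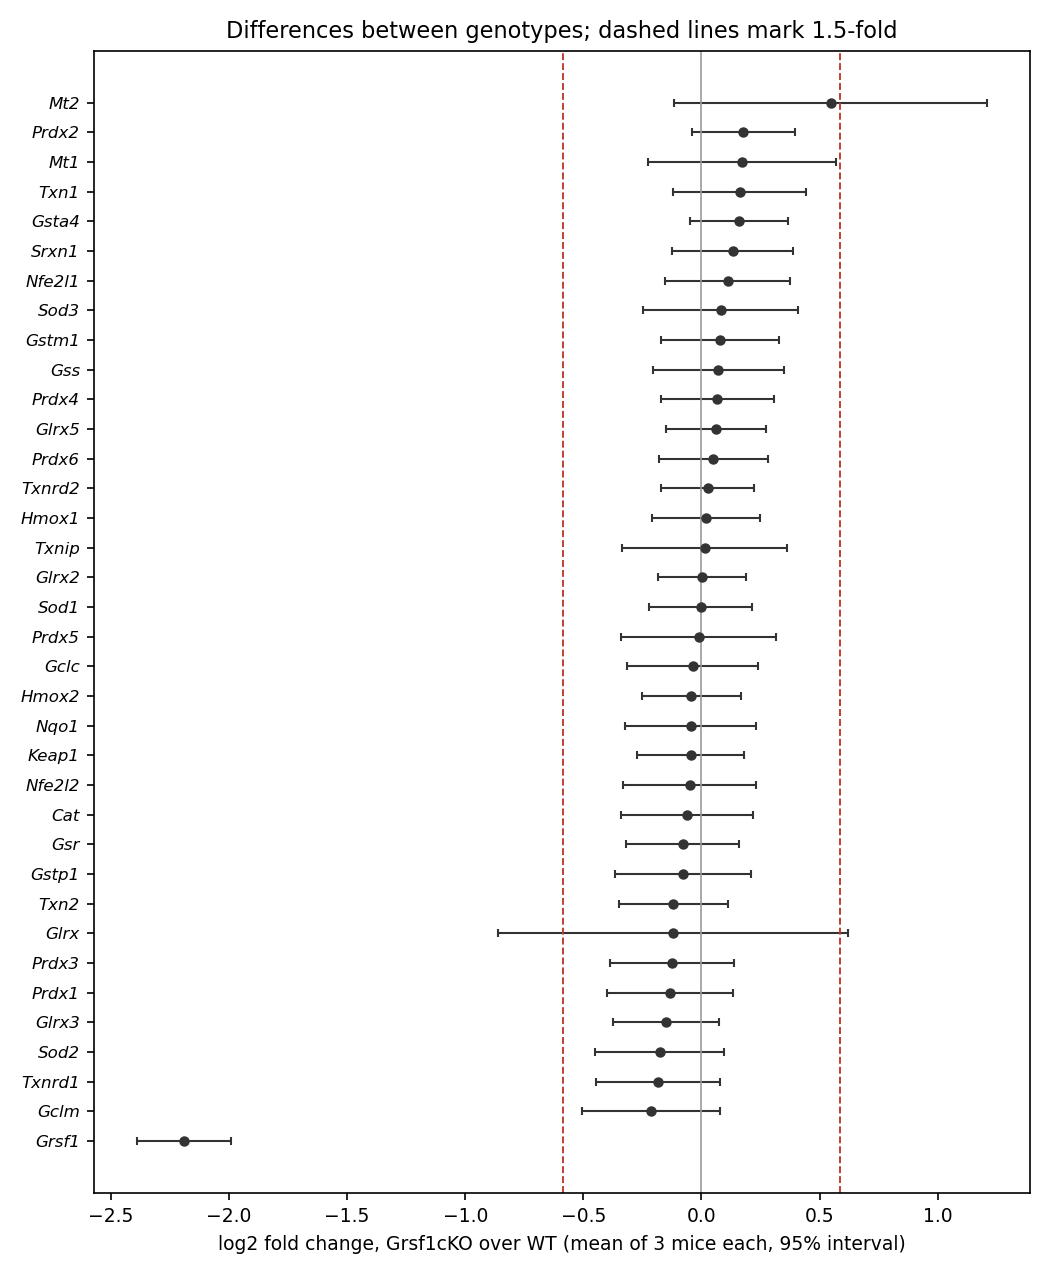
Log2 fold change of each of the 35 genes and of Grsf1, Grsf1cKO over WT, as points with 95% intervals from limma (3 mice each). Every interval except that of Grsf1 includes 0, and those of Mt2 and Glrx reach past the dashed lines at 1.5-fold.

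The superoxide dismutases and catalase take superoxide to hydrogen peroxide and hydrogen peroxide to water. Sod2, the mitochondrial matrix enzyme, had log2 signals of 14.50, 14.54 and 14.23 in Grsf1cKO mice 1, 2 and 3, against 14.55, 14.66 and 14.59 in WT mice 1, 2 and 3. All Grsf1cKO mice were below all WT mice, but Grsf1cKO 2 and WT 1 differed by less than the SD within the genotypes. The log2 fold change was -0.18 (SE 0.11, limma adjusted p = 0.996), and without Grsf1cKO 3 it was -0.081. Sod1, the cytosolic enzyme, was at 16.68, 16.57 and 16.57 in Grsf1cKO, against 16.70, 16.59 and 16.54 in WT mice. Its genotypes overlapped fully, with a difference of -0.002 and an interval from -0.22 to 0.22. Cat, the peroxisomal catalase, was at 13.26, 13.43 and 13.55 in Grsf1cKO, against 13.50, 13.35 and 13.56 in WT mice, so that the lowest value was Grsf1cKO 1 and the highest WT 3. Its log2 fold change was -0.061 (SE 0.11). Sod3, the secreted enzyme, overlapped as well, with 0.082.

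The peroxiredoxins reduce peroxides through a reactive cysteine. Prdx2, a cytosolic member that is abundant in red blood cells, was at 14.60, 14.72 and 14.68 in Grsf1cKO mice 1, 2 and 3, against 14.57, 14.50 and 14.40 in WT mice 1, 2 and 3. The genotypes did not overlap, though Grsf1cKO 1 was close to WT 1. The log2 fold change was 0.18 (SE 0.089, interval -0.042 to 0.40, limma adjusted p = 0.996). A further probe of Prdx2 gave 0.25 and did not overlap either. The 5 red blood cell markers tested had a median log2 fold change of -0.15 with overlapping genotypes, but 3 of them (Hba-a1 0.13, Alas2 0.16 and Slc4a1 0.068) were above 0 within slide 2. Relative to the WT mean, their mean was -0.29, -0.095 and -0.31 in Grsf1cKO mice 1, 2 and 3, the 3 mice highest in Prdx2, against 0.18, 0.37 and -0.55 in WT mice 1, 2 and 3, and their part in the Prdx2 values was not tested. In the other cytosolic, secretory and mitochondrial members the genotypes overlapped by the brightest probe. The log2 fold change was -0.13 for Prdx1 (cytosol, with -0.13 and 0.037 by 2 dimmer probes), -0.13 for Prdx3 (mitochondrial matrix), 0.067 for Prdx4 (endoplasmic reticulum), -0.011 for Prdx5 (mitochondria, peroxisomes and cytosol) and 0.050 for Prdx6, which has a single active cysteine. A dimmer Prdx6 probe did not overlap, at 0.17. Srxn1, the sulfiredoxin that repairs overoxidized peroxiredoxins, differed by 0.13 with overlap.

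The thioredoxin system feeds the peroxiredoxins. Txn1, cytosolic thioredoxin, was at 14.46, 14.17 and 14.33 in Grsf1cKO, against 14.17, 14.03 and 14.26 in WT mice, with Grsf1cKO 2 level with WT 1. Its log2 fold change of 0.16 (SE 0.11, limma adjusted p = 0.996) was 0.077 within the slide that held both genotypes. Txnrd1, the cytosolic reductase that returns thioredoxin to its active form, was at 14.23, 13.93 and 14.00 in Grsf1cKO, against 14.30, 14.20 and 14.21 in WT mice. Grsf1cKO 2 and 3 were below every WT mouse and Grsf1cKO 1 lay among them, for a difference of -0.18 (SE 0.11, limma adjusted p = 0.996) and -0.19 by a further probe. Txnip, the inhibitor of thioredoxin that follows glucose supply, was at 17.28, 17.34 and 16.95 in Grsf1cKO, against 17.00, 17.23 and 17.29 in WT mice. It was low in 1 mouse of each genotype, Grsf1cKO 3 and WT 1, and its difference was 0.014 (SE 0.14), or 0.13 by a dimmer probe. The mitochondrial pair differed by -0.12 (Txn2, and 0.037 by a dimmer probe) and 0.026 (Txnrd2, and 0.14 by a dimmer probe), with overlap.

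Glutaredoxins use glutathione to reduce protein thiols or to carry iron-sulfur clusters. Glrx, the cytosolic enzyme, varied most among mice of a genotype (SD 0.44), and was described for that after its values were seen. It was at 11.51, 12.004 and 11.15 in Grsf1cKO, against 11.47, 12.20 and 11.37 in WT mice, high in mouse 2 of each genotype, though the numbers were not taken as pairs. The interval of its difference ran from -0.86 to 0.62. Glrx3, a cytosolic cluster carrier, differed by -0.15 (-0.049 by a dimmer probe), Glrx5, the mitochondrial one, by 0.061 and Glrx2, the mitochondrial oxidoreductase, by 0.002, all with overlap. The brightest Glrx2 probe was at percentile 99.9 of all probes, where quantile normalization leaves little room to differ, and scaling to the 75th percentile gave -0.13. It read 18.43 on average in either genotype, where a dimmer Glrx2 probe read 14.78 in Grsf1cKO and 14.69 in WT mice, a difference of 0.083. Without probe sequences the specificity of the bright probe was not examined.

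Of 6 genes whose products act mainly in mitochondria (Sod2, Prdx3, Txn2, Txnrd2, Glrx2 and Glrx5, a grouping made after their values were seen and without Prdx5, which is shared with other compartments), 3 were above 0 and 3 below by their brightest probes, with a median log2 fold change of -0.058. Their mean was lowest in Grsf1cKO 3, at -0.12 relative to the WT mean, and between -0.029 and 0.025 in the other 5 mice.

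**Figure D2:**
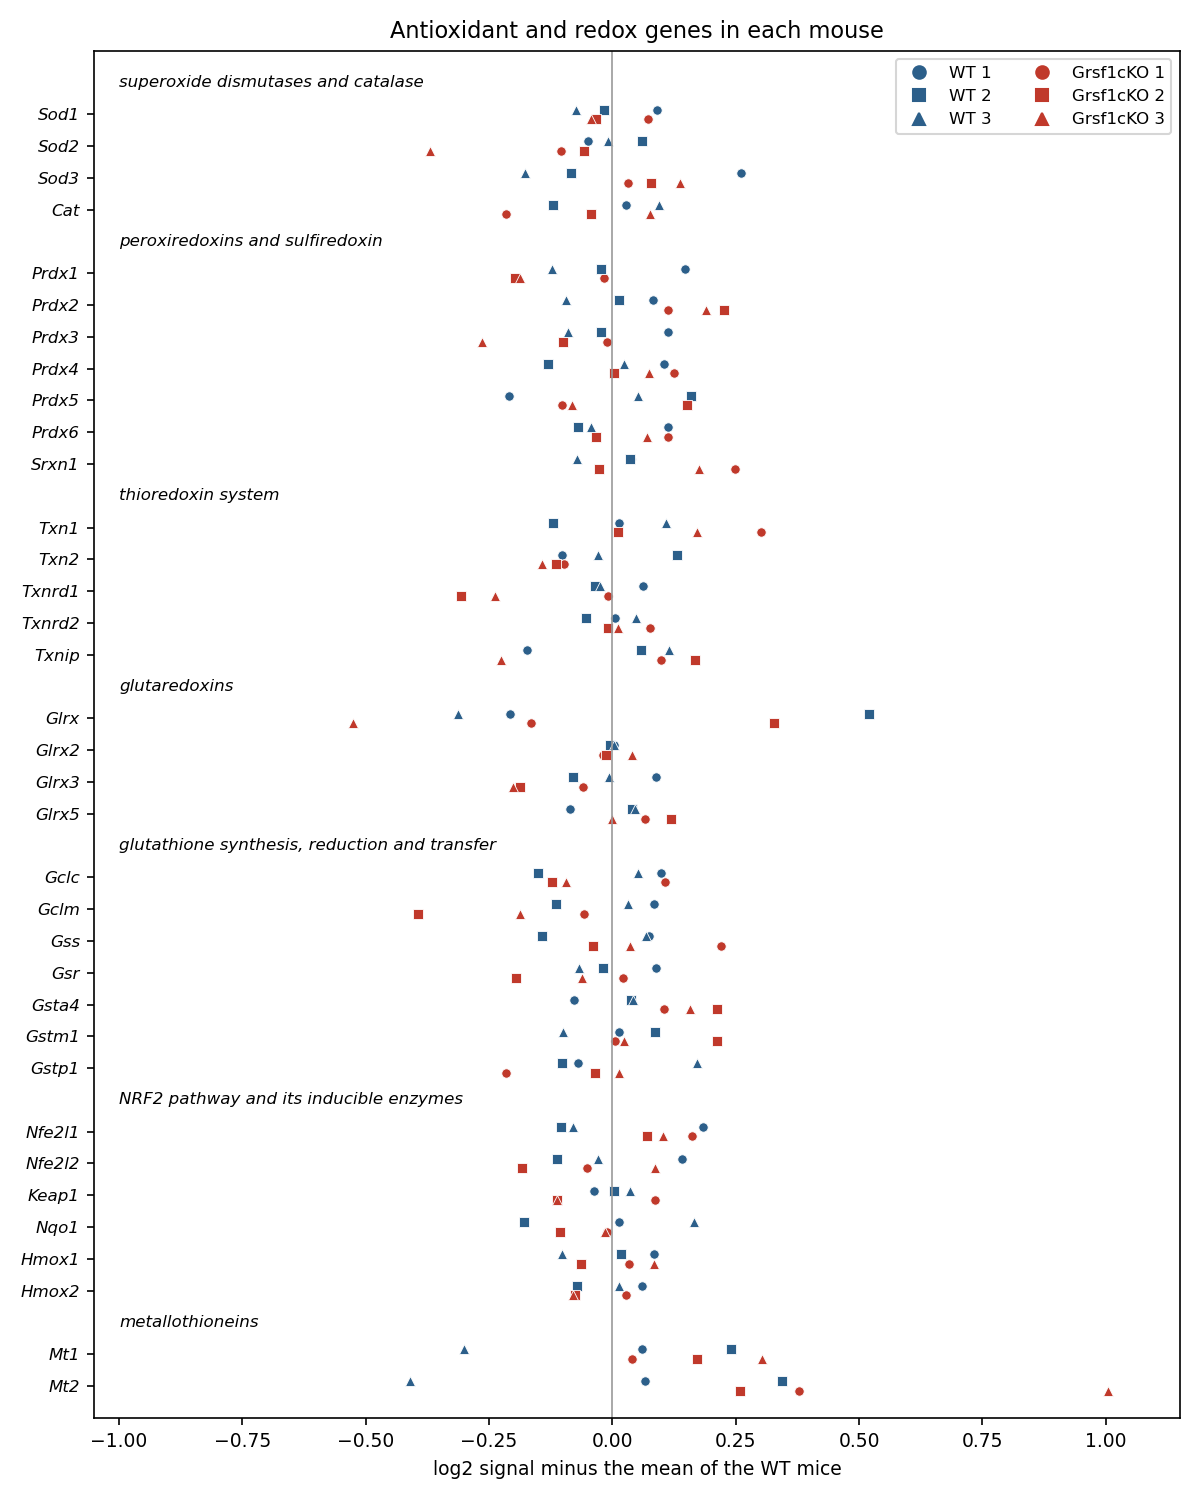
Log2 signal of each of the 35 genes in each mouse, minus the mean of the 3 WT mice, with genes grouped by role and 1 symbol per mouse. The colors separate only in Sod2, Prdx2 and Gsta4, and the widest scatter is in Glrx and Mt2.

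Glutathione synthesis, NRF2 targets and metallothioneins are controlled largely at their promoters, so the promoters of Gclm, Txnrd1, Mt1 and Mt2 are shown. They are 4 of the 5 genes with the largest fold changes among those whose genotypes overlapped, and the window of the other, Txn1, holds neither motif. The capitals mark the core of the antioxidant response element (ARE), which NRF2 binds with a small MAF protein and which was searched as TGACNNNGC, and the core of the metal response element (MRE), bound by MTF1 and searched as TGCACNC or TGCGCNC, each on both strands. Each is the 250 bases before a start of the gene in RefSeq (GRCm38.p6, plus strand): chr3:122245307-122245556 for Gclm, chr10:82858956-82859205 for 1 of 3 starts of Txnrd1, chr8:94178839-94179088 for Mt1 and chr8:94172368-94172617 for Mt2.
Gclm: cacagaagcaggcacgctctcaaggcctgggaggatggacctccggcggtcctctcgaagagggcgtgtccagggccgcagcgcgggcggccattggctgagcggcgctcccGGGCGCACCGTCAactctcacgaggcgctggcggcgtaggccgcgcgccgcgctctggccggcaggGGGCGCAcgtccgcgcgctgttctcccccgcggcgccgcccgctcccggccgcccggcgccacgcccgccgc
Txnrd1: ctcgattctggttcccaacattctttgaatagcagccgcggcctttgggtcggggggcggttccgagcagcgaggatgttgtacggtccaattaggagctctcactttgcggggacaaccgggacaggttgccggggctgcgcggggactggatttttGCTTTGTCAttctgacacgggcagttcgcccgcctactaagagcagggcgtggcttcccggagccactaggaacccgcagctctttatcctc
Mt1: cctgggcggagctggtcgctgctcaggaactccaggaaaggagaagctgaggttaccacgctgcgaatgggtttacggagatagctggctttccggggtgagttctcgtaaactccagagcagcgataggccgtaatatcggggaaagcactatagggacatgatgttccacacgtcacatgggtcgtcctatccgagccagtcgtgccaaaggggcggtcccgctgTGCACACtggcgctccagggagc
Mt2: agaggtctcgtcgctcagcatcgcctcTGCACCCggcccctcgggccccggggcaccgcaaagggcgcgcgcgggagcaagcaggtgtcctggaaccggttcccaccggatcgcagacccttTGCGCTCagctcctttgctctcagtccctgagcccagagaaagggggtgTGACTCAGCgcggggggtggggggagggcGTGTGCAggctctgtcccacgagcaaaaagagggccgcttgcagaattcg
The Gclm window holds an ARE core beginning 134 bases before the start, which overlaps 1 of its MRE cores. Txnrd1 holds 1 ARE core at 92 bases and no MRE core. The Mt1 window holds 1 MRE core at 23 bases, and the Mt2 window holds an ARE core at 79 bases and MRE cores at 50, 128 and 223 bases. Of 32851 such windows, 10.2% hold an ARE core and 21.4% an MRE core, and of 27025 genes, some with several windows, 11.5% and 23.8% do in at least 1. Of the 29 members with a window, an ARE core was found in 6 (Gclm, Mt2, Nfe2l2, Prdx1, Sod1 and Txnrd1) (20.7%) and an MRE core in 10 (34.5%). Sod3, Prdx6, Gclc, Gsr, Gsta4 and Hmox1 were not matched. Each window stops at its start, so the counts are for these bases and not for whole promoters. A match describes letters and shows no binding.

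Glutathione is made in steps, by glutamate-cysteine ligase (Gclc, its catalytic subunit, and Gclm, its modifier) and then glutathione synthetase (Gss), and is returned to its reduced form by Gsr. Gclm, with the ARE core shown, was at 12.41, 12.07 and 12.28 in Grsf1cKO, against 12.55, 12.35 and 12.50 in WT mice. The groups overlapped through Grsf1cKO 1, which was above WT 2, and the difference was -0.21 (SE 0.12, interval -0.51 to 0.080, limma adjusted p = 0.996). That difference was -0.29 without Grsf1cKO 1 and -0.12 without Grsf1cKO 2, and the groups did not overlap with normexp or within slide 2. Gclc was at 11.87, 11.64 and 11.66 in Grsf1cKO, against 11.86, 11.61 and 11.81 in WT mice, with mouse 2 lowest in each genotype, and its difference was -0.037 (SE 0.11). Gss differed by 0.072 and Gsr by -0.078, with overlap. The dimmer Gss probe gave 0.33 with a wide interval (-0.16 to 0.82), and there the repeat array of Grsf1cKO 1 read 9.54 where the first array read 8.01.

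Glutathione S-transferases join glutathione to reactive compounds. Gsta4, which clears the lipid peroxidation product hydroxynonenal, was at 10.02, 10.13 and 10.07 in Grsf1cKO mice 1, 2 and 3, against 9.84, 9.95 and 9.96 in WT mice 1, 2 and 3. The genotypes did not overlap, and the gap between Grsf1cKO 1 and WT 3 was about the SD within the genotypes (0.061). The log2 fold change was 0.16 (SE 0.085, interval -0.049 to 0.37, limma adjusted p = 0.996). On the first array of Grsf1cKO 1 Gsta4 read 9.94, below WT 2 and WT 3, and on the repeat array 10.10, so the lack of overlap rests on the repeat. Gstm1 differed by 0.080 (0.005 by a dimmer probe) and Gstp1 by -0.079, with overlap, and both belong to families of close copies that a probe may share.

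In the values as reported, no gene of the NRF2 pathway stood apart by genotype in its brightest probe. Nfe2l2, which encodes NRF2, was at 13.04, 12.91 and 13.18 in Grsf1cKO, against 13.24, 12.98 and 13.06 in WT mice (difference -0.050, SE 0.12). Nqo1, the quinone reductase often read as a marker of NRF2 activity, was at 11.64, 11.55 and 11.64 in Grsf1cKO, against 11.67, 11.47 and 11.82 in WT mice. The Grsf1cKO mice lay inside the WT range, with a difference of -0.045 and an interval from -0.32 to 0.23. Within slide 2 the Nqo1 difference was -0.14 and the genotypes did not overlap, nor did they without WT 2. Hmox1, the inducible heme oxygenase, was at 11.00, 10.90 and 11.05 in Grsf1cKO, against 11.05, 10.98 and 10.86 in WT mice. Its genotypes overlapped (0.018, interval -0.21 to 0.25). Keap1 (-0.046), the constitutive heme oxygenase Hmox2 (-0.043, and -0.087 by a dimmer probe) and Nfe2l1 (0.11), an NRF2 relative that controls proteasome genes, overlapped as well by the brightest probe. A dimmer Nfe2l1 probe did not overlap, at 0.17.

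Metallothioneins bind zinc and copper and scavenge radicals. Mt2, with the MRE cores shown, had the largest fold change of the 35 genes. It was at 13.94, 13.82 and 14.57 in Grsf1cKO mice 1, 2 and 3, against 13.63, 13.91 and 13.15 in WT mice 1, 2 and 3. Grsf1cKO 3 was above all other mice and WT 3 below them, while Grsf1cKO 1 and 2 lay near WT 2. The log2 fold change was 0.55 (SE 0.27, interval -0.12 to 1.21, limma adjusted p = 0.996), 0.32 without Grsf1cKO 3 and 0.34 without WT 3. Within the slide that held both genotypes it was 0.71 (limma adjusted p = 0.975), and with the slide as a block 0.64 (limma adjusted p = 1), and over all alternatives the adjusted p of Mt2 ran from 0.575 to 1. The genotypes did not overlap in Mt2 within that slide, with the deposited z-scores, and without Grsf1cKO 2 or WT 2. Mt1 was at 14.11, 14.25 and 14.38 in Grsf1cKO, against 14.13, 14.32 and 13.77 in WT mice. WT 3 was again the lowest and Grsf1cKO 3 the highest, with a difference of 0.17 (SE 0.16), which was 0.020 without WT 3 and 0.013 by a much dimmer probe. The Mt1 difference was 0.29 without WT 2 and 0.27 within the slide that held both genotypes.

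Grsf1cKO 3 also stood apart in macrophage genes. All 6 macrophage markers tested were highest in that mouse by their brightest probes, and their mean was 0.85 above the WT mean there, against -0.13 to 0.14 in the other 5 mice. Cd163 was level in Grsf1cKO 3 (11.66) and Grsf1cKO 2 (11.65), and its dimmer probe was highest in Grsf1cKO 2 (6.06, against 5.70). Cd68, a lysosomal protein of macrophages, was at 13.30 in Grsf1cKO 3 and between 11.57 and 11.96 in the others. Csf1r, the receptor that macrophages need, was at 14.19 there. Mt3, a metallothionein outside the set, was also highest in Grsf1cKO 3, at 9.71, as was Cybb, the catalytic subunit of the phagocyte NADPH oxidase, at 8.79. Of 3 neutrophil markers tested, S100a8 (7.79) and S100a9 (10.04) were highest in Grsf1cKO 3, while Retnlg was highest in WT 2 (7.07). The mean of 4 fibroblast markers was also highest in Grsf1cKO 3, at 0.42 above the WT mean, with Col1a1 at 14.95 and Col3a1 at 15.45, while Dcn (17.77) and Pdgfra (12.28) lay among the other mice. The mean of 5 adipocyte markers was lowest in WT 3 (-0.78 relative to the WT mean), the mouse lowest in Mt1 and Mt2, and next lowest in Grsf1cKO 3 (-0.47). The mean of 13 metal and glucocorticoid response genes was lowest in Grsf1cKO 3 (-0.13 relative to the WT mean) and highest in Grsf1cKO 2 (0.31). The glucocorticoid-responsive Fkbp5 (12.29), Sgk1 (14.81) and Cebpd (13.34) were lowest in Grsf1cKO 3, as were Per1 (13.67), Tsc22d3 (15.48) and Arrdc2 (12.98). Of the same list, Pdk4 (16.66) was above every WT mouse there, and Zbtb16 (14.00) lay among the other mice. The zinc exporter Slc30a1, a target of MTF1, also lay among the other mice there (9.97). The part of these cells and signals in the Mt1, Mt2 and Sod2 values was not tested.

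**Figure D3:**
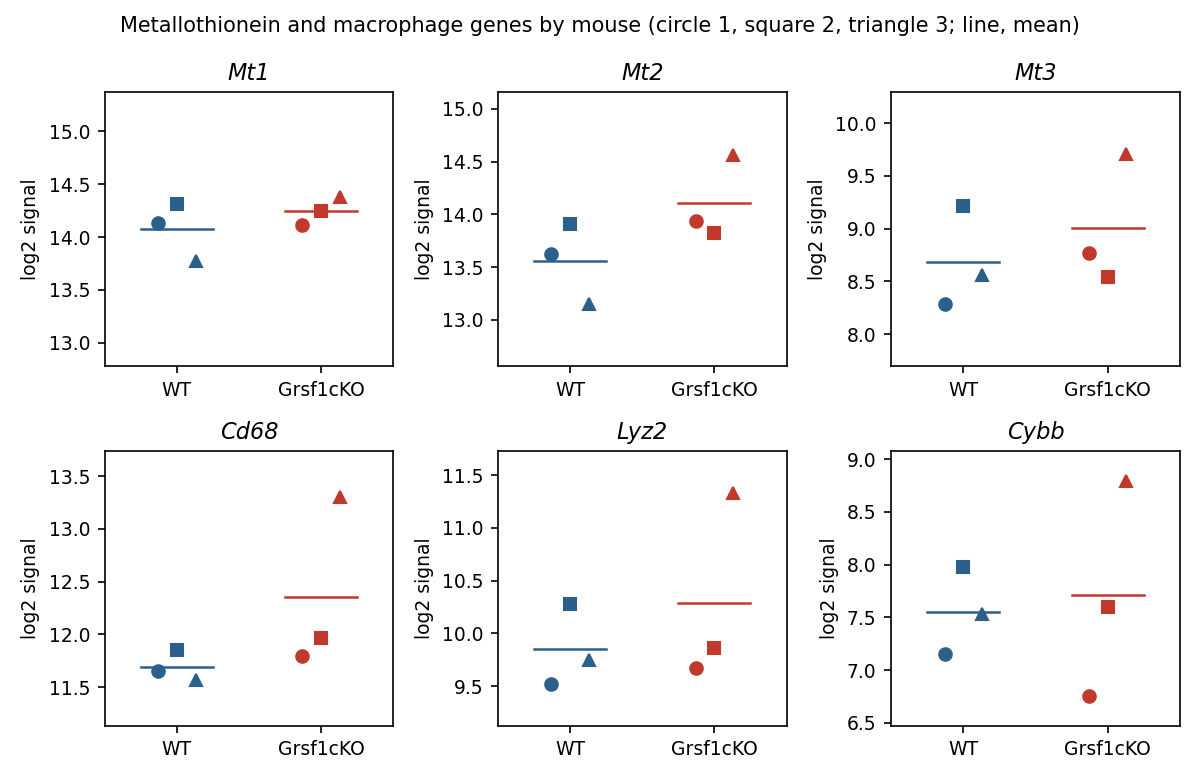
Log2 signal of 3 metallothionein genes and of 3 macrophage genes (Cd68, Lyz2, Cybb) in each mouse, with a line at each genotype's mean. All panels span the same number of log2 units, and Grsf1cKO 3 (triangle) is the highest mouse in each.

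Other redox genes, in 6 lists chosen by function, gave 3 of 89 tested with an unadjusted p under 0.05 in limma (3.37%, where 4.25% of all probes did), 6 without overlap (6.74%, where 9.35% of all probes were) and 0 past the study's criteria there. By the methods' z-test 1 of the 89 (Ggt6) passed the criteria, where 0.975% of all probes did. Ggt6, a gamma-glutamyl transferase family member and 1 of the RNAs the study names from these arrays, was at 9.07, 7.98 and 8.82 in Grsf1cKO mice 1, 2 and 3, against 7.36, 7.05 and 7.19 in WT mice 1, 2 and 3. The genotypes were apart, by 1.43 (SE 0.29, limma adjusted p = 0.996). Its adjusted p was 0.00246 by the methods' z-test, where it passed the criteria, and between 0.537 and 1 under every other alternative. Mgst1, the microsomal glutathione transferase, was at 13.46, 13.09 and 13.32 in Grsf1cKO, against 13.90, 13.63 and 13.52 in WT mice. It was lower in every Grsf1cKO mouse by either of its probes, with log2 fold changes of -0.39 and -0.37 (SE 0.15 and 0.14, limma adjusted p = 0.996). Slc40a1, the iron exporter ferroportin, an NRF2 target of macrophages, was at 12.90, 12.77 and 12.49 in Grsf1cKO, against 13.21, 12.97 and 13.03 in WT mice, also without overlap (-0.35, SE 0.14, limma adjusted p = 0.996).

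By list, those genes came from glutathione conjugation, transport and turnover (2 of 25 tested) and from NRF2 partners, competitors and further targets (1 of 20). None came from NADPH supply (7 tested), from methionine sulfoxide repair, sestrins and related reductases (15), from oxidases that make reactive oxygen species (9) or from the metal and glucocorticoid response (13). Median log2 fold changes of these lists were 0.054, -0.013, -0.059, 0.024, 0.16 and 0.11 in that order. The oxidase mean was 0.42 above the WT mean in Grsf1cKO 3, the mouse highest in macrophage markers, and -0.23 and -0.070 relative to it in Grsf1cKO 1 and 2. The other 3 genes without overlap were Maff (-0.35), Idh2 (-0.086) and Blvra (-0.050), all lower in Grsf1cKO by their brightest probes. Blvra was at 11.290 in Grsf1cKO 1 against 11.291 in WT 1, and dimmer probes of Idh2 (0.062) and Blvra (-0.029) overlapped. Of the NRF2 partners, Mafg (-0.031), Mafk (0.008) and the competitor Bach1 (-0.11) overlapped. The cystine transporter gene Slc7a11 and Ggt1 were not well above background, and no probe was named as Nnt.

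**Figure D4:**
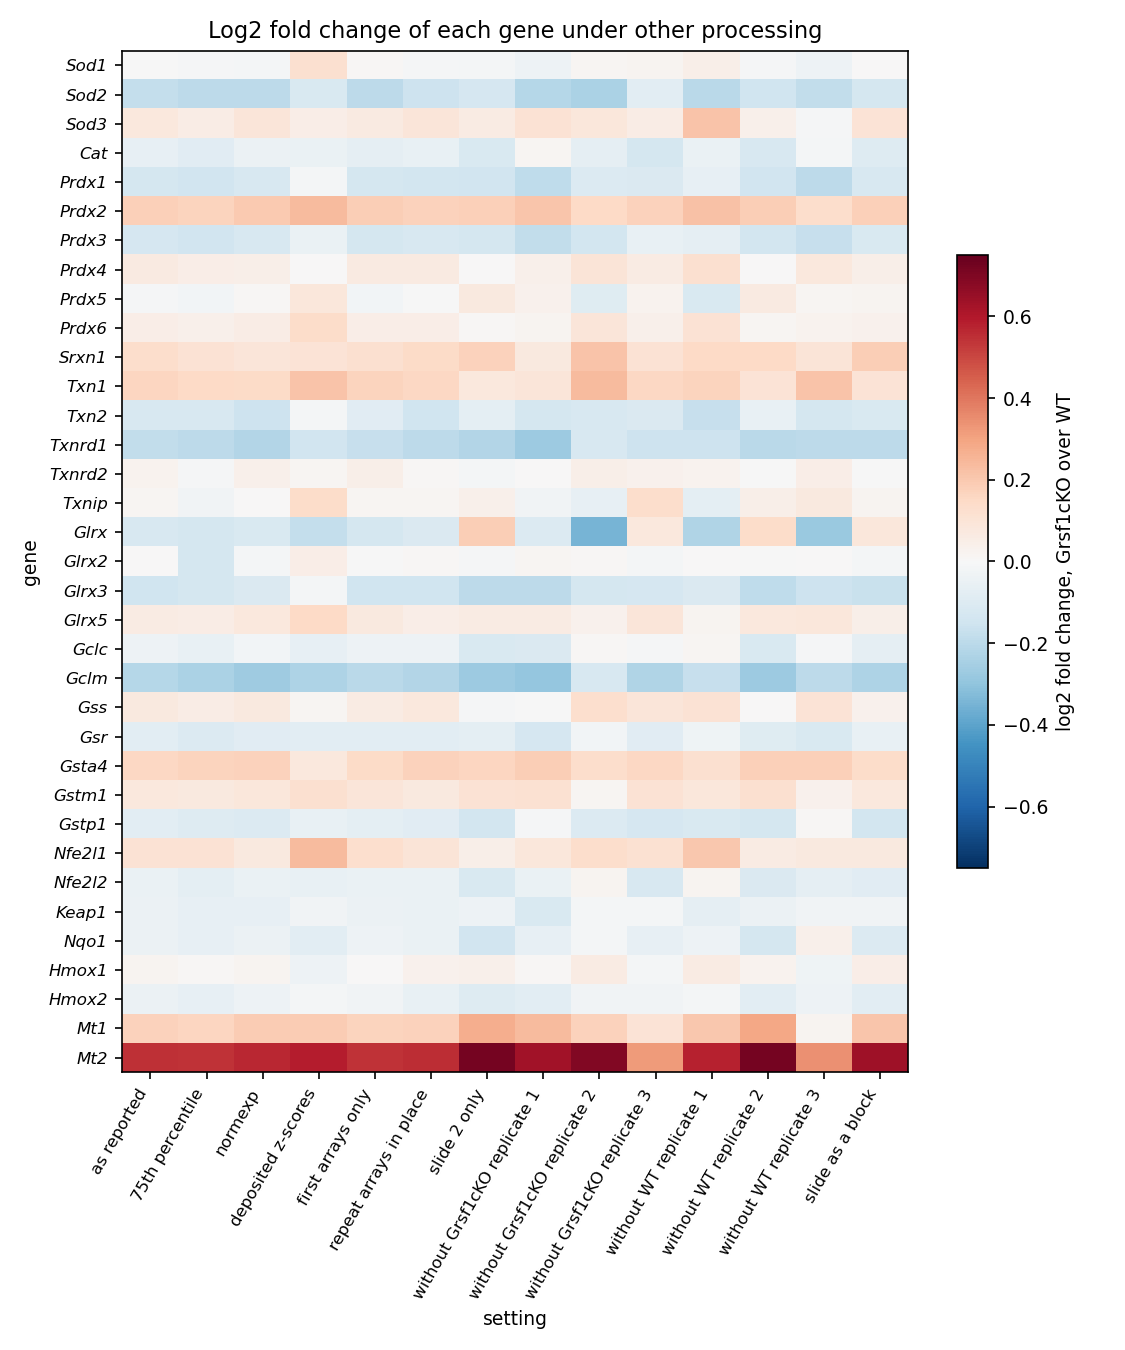
Log2 fold change, Grsf1cKO over WT, of each of the 35 genes (rows) as reported and under other normalizations, array choices and with each mouse left out (columns), from blue (lower) to red (higher). Mt2 stays above 0 in every column, from 0.32 to 0.72, while genes such as Glrx change sign.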

How the data were processed

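Total RNA of 6 mice was measured on 8 Agilent 1-color arrays. The authors deposited the intensity of each spot from Feature Extraction 12.0.3.1, corrected for background and not normalized between arrays, and a score per spot, the z-score of its log2 intensity within the array. Processed signals were quantile normalized as the methods state, control and outlier spots were left out, and log2 values were averaged by probe and by mouse. The probes that 3 or more of the 6 mice showed well above background were compared with limma 3.58.1 in R 4.3.3, genotype being the only term, and p-values were adjusted by Benjamini-Hochberg over all 38888 probes tested. With 3 mice each, the smallest p of a 2-sided exact permutation test is 0.1. Of 56605 probes, 32994 were named through RefSeq accessions (GRCm38.p6). A gene is given by its brightest probe.

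The first arrays of WT 1 and WT 2 were on slide 1 and all others on slide 2. The labels number the mice as separate animals, and the number of mice limits the precision. Values by mouse are given for members with an unadjusted p under 0.05 or no overlap, the 5 other largest fold changes, and Sod1, Sod2, Cat, Gclc, Nfe2l2, Nqo1, Hmox1, Txnip, Mt1 and Mt2, and for other redox genes with an unadjusted p under 0.05. Members, lists and this rule were chosen with earlier results of these data known.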

Additional observations from a re-analysis of the deposited data

How the results depend on the processing

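The count of antioxidant and redox genes past the study's criteria was 0 under every alternative run, and with every probe of each gene counted. Of all probes, only 0.00771% passed as reported and 0.975% with the methods' z-test, so a count of 0 among 35 genes says little about them. Sod2 stayed below 0 (-0.24 to -0.081) and Prdx2 (0.13 to 0.24) and Gsta4 (0.079 to 0.18) above 0 throughout. The median log2 fold change of the 35 genes stayed between -0.024 and 0.019, and with each mouse left out between -0.002 and 0.019.

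Genes with an unadjusted p under 0.05, 0 as reported, numbered 3 with normexp (3.69% of all probes), 3 with the methods' z-test (10.8%), 2 with an intensity trend (3.55%), 1 with the deposited z-scores (3.99%), 1 with the slide as a block (1.72%), and 0 to 1 with a mouse left out (Txnrd1, without Grsf1cKO 1, 4.49%). Mt2 was among them with normexp, the trend, the z-scores and the slide block. Genes without overlap, 3 as reported, numbered 2 (5.71%, all probes 8.18%) with 75th percentile scaling and 2 (5.71%, all probes 7.89%) with the deposited z-scores. They numbered 6 (17.1%, all probes 9.55%) with normexp and 7 (20%, all probes 20.4%) within slide 2. Over all probes of each gene, 5 of the 35 genes and 6 of 50 probes did not overlap, where 9.35% of all probes did not. With a mouse left out they numbered 3 (8.57%, all probes 18.9%, without WT 3) to 11 (31.4%, all probes 19.8%, without Grsf1cKO 1), where fewer mice overlap less often by construction. With the slide as a block overlap could not be counted. Genes gained with normexp were Gclm, Txn2 and Txnrd1, and within slide 2 Gclm, Glrx3, Mt2, Nqo1 and Txn2. Mt2 was gained with the deposited z-scores and Txn2 with repeat arrays substituted. Other redox genes with an unadjusted p under 0.05 numbered 3 of 89 as reported (3.37%, all probes 4.25%), 7 with the z-test (all probes 10.8%) and 6 with the trend (all probes 3.55%). With a mouse left out they went from 1 (without Grsf1cKO 2, all probes 4.21%) to 6 (without Grsf1cKO 1, all probes 4.49%). All probes past the criteria went from 3 to 379 with the z-test, whose p comes from the normal distribution with no allowance for 3 mice per genotype, and were 2 to 4 with a mouse left out. The cause of these shifts was not tested.

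With the replicate number as a block, 1 probe passed the criteria and 0 antioxidant and redox genes did, 0 had an unadjusted p under 0.05 (6.2% of all probes), and 3 did not overlap (8.57%, all probes 9.35%). The other redox genes gave 3 and the median was -0.002. Deviations of same-numbered mice correlated with r of 0.23, 0.097 and 0.10 over 38859 probes, above the -0.19 to 0.094 of differently numbered mice. Deviations from a genotype mean cancel over its mice, so a positive r for some pairs lowers r for others, and the contrast was not tested. The highest r was for Grsf1cKO 1 and WT 1, the mice averaged over a first and a repeat array. The labels number separate animals, and the numbers were not taken as pairs.

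All 35 genes were well above background in all 6 mice. The repeat array of Grsf1cKO 1 had 88.9% of spots well above background, where the others had 66.3% to 73.1%, and first arrays alone gave 2 genes without overlap (5.71%, all probes 9.14%).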
